A study of Mus musculus with 2 samples.

Results

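Messenger RNAs of the cytosolic ribosomal proteins were examined in Neuro2a cells, a mouse neuroblastoma line, after knockdown of CPEB1. Members were the probe sets whose platform annotation names a single gene with the symbol Rpl or Rps and a number, or Rpsa, Rplp0, Rplp1 or Rplp2, without the Rps6k kinases, Rps19bp1 and pseudogene symbols. This gave 105 of 45037 probe sets, which stand for 49 genes, 23 of the small (40S) and 26 of the large (60S) subunit. Control siRNA (siControl) or siRNA against the coding region of Cpeb1 (siCPEB1) was transfected into the cells for 24 h, and 100 ng of total RNA of each condition was labelled for 1 Affymetrix GeneChip. The knockdown is transient and acts in a dividing tumour line rather than in neurons. With 1 array for each condition, no p-value can be given, and every ratio compares these 2 arrays and not the conditions.

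The cytosolic ribosome is built from ribosomal RNAs and a large set of proteins, of which most are present once in each particle. The mRNAs of these proteins are among the most abundant of a growing cell. Most of them begin with a cytosine and an unbroken run of pyrimidines, the 5′ terminal oligopyrimidine (TOP) motif, through which mTOR and the RNA-binding protein LARP1 set their translation and stability. CPEB1, the protein that was depleted, binds U-rich elements in 3′ ends of mRNAs and controls their poly(A) tails and translation.

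To show how such mRNAs can begin, promoter stretches of 4 members are given, from 60 bases before to 15 bases after the annotated start. They belong to Rps27, the member gene with the highest ratio; Rpl22l1, the one with the lowest; Rpl13a, whose 4 probe sets all had low ratios; and Rpl35, whose 5 brightest probe sets gave almost the same ratio. The sequences are those of RefSeq on GRCm38.p6, 5′ to 3′ in the direction of transcription, and capitals mark the longest run of C and T that touches the window from 10 bases before to 20 bases after the start.
Rps27, chr3:90213634-90213708 (minus strand): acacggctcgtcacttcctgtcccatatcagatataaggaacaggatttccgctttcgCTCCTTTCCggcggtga
Rpl22l1, chr3:28805448-28805522 (plus strand): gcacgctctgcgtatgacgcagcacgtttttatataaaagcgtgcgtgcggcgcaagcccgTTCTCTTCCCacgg
Rpl13a, chr7:45128731-45128805 (minus strand): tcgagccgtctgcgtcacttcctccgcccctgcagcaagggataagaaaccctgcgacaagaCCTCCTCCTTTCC
Rpl35, chr2:39005117-39005191 (minus strand): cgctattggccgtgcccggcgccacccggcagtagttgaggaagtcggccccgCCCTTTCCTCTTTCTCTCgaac

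RefSeq promoters were at hand for 43 of the 49 member genes, 51 promoters in all. A run of 7 or more C or T that touched the window was present in 28 of them (54.9%). Over all 32851 promoters of the same length, the share was 24.6%. Such a run can lie mostly outside the window, as in Rps25 (from −22 to −8), and need not begin at the start of the mRNA. Other letters were searched in the whole promoter, from 250 bases before to 50 bases after the start. The letters CCGGAAG, the core of an ETS factor site, were found on either strand in 21 (41.2%), against 8.86% of all. The letters AAGATGGCG, the core of a YY1 site, were found on either strand in 3 (5.88%), against 1.40% of all, and the 2 motifs can overlap in the letters AAG. These matches describe the letters alone, and an annotated start can lie some bases from the start that a cell uses. In the printed stretches, the run covers the start itself in Rps27 and Rpl35 and begins just after it in Rpl22l1 and Rpl13a.

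Cpeb1 itself went from 302 on the siControl array to 38.5 on the siCPEB1 array (log2 ratio −2.97, 7.86-fold lower). Of 45037 probe sets, 23655 passed a filter on signal, at or above the array median in 1 array (21.0 in siControl, 21.6 in siCPEB1) and at or above the 25th percentile in the other (5.07 and 5.62). All 9 sympathetic neuroblastoma markers on the array passed. Of these, 4 were more than 2-fold higher in siCPEB1, against 4.96% of all genes. In the other direction, 2 were below 0, Gata2 (log2 ratio −0.49) and Stmn2 (−0.30). Of markers of other cells, 2 of 7 for fibroblasts (Col1a2, 42.3 in siControl and 309 in siCPEB1, and Pdgfra, 25.9 and 39.8), 1 of 5 for haematopoietic cells (Tyrobp, 9.62 and 22.8) and 2 of 6 for glia and endothelium passed, and their part in the ribosomal protein results was not tested. In RNA from whole cultures, fewer cells of a type and less RNA per cell cannot be told apart. The mean log2 ratio of the hybridization controls, which are spiked equally into both, was −0.13 (SD 0.075, 18 probe sets), and poly-A controls, added to the RNA before labelling, had a mean of −0.18 (SD 0.185, 24 probe sets).

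Ribosomal protein mRNAs were slightly lower in siCPEB1 as a group, by an amount that depended on the scaling. Of the 105 probe sets, 92 passed the filter, from 46 of the 49 genes. Of these, a dim probe set of Rps20 and one of Rps9 passed through 1 array alone. The 92 had a median log2 ratio of −0.21, with quartiles of −0.31 and −0.13 and a range of −1.05 to 1.67 (SD 0.38), and 84 of the 92 were below 0. Quantile normalization gave a median of −0.045 and loess one of −0.073. Over all 105 without the filter, the median was −0.19. Over all passing probe sets the median was 0.02, and 48% were below 0. Of the 92, 4 probe sets were more than 2-fold higher, against 4.49% of all passing probe sets, and 1 was more than 2-fold lower, against 4.04%. All 5 of these have a mean signal under 1000 and none is among the bright members. The median of the members lay below the mean of the hybridization controls (−0.13) and near that of the poly-A controls (−0.18), and the part of this offset in the members' ratios was not tested.

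**Figure D1:**
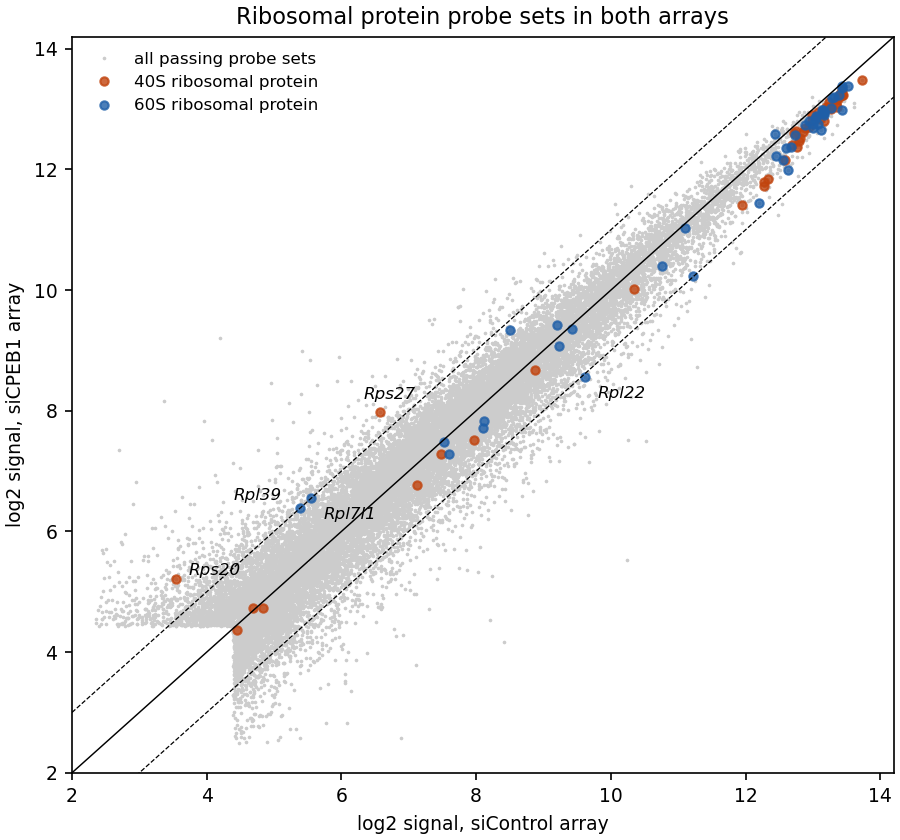
Signal of each passing probe set in the siCPEB1 array against that in the siControl array, both on a log2 axis, with 40S members in orange, 60S members in blue and all 23655 passing probe sets in grey. The solid line marks equal signals and the dashed lines a 2-fold difference, and the members gather at the bright end just under the solid line, with the 5 past 2-fold named.

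Ribosomal protein probe sets were among the brightest of both arrays. The highest signal of either array belonged to Rps29, a zinc-binding protein of the 40S head, with 13571 in siControl and 11457 in siCPEB1. Of the 50 brightest probe sets of siControl, 22 were members, and of those of siCPEB1, 17 were. A signal also depends on how well its probes bind, so that an order of signals between genes is not an order of mRNA levels. Because of their brightness, the members were set beside other probe sets of like signal, in bands whose limits were chosen after the values had been seen.

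Among probe sets with a mean signal of 4000 or more, 66 were members, and 65 of these were below 0 with a median of −0.22 (range −0.64 to 0.15, SD 0.13). The exception was 1 of 4 probe sets of Rpl41. The 336 other probe sets of that brightness had a median of −0.10, and 72% were below 0. Bright probe sets as a whole were thus lower in siCPEB1, and 62 of the 66 members lay below the median of the others. This band has no upper limit, and members and others were not matched for signal within it. Between signals of 1000 and 4000, the 6 members had a median of −0.44 and all were below 0, while 2149 others had a median of −0.01. Between 100 and 1000, the median was −0.19 for 14 members (11 below 0) and 0.04 for 11046 others. Below 100, the 6 members had a median of 0.52 (2 below 0) and 3 were more than 2-fold higher, against a median of 0.04 for 9929 others. Without the probe set of Rps20 that passed through the siCPEB1 array alone, the other 5 had a median of 0.04, and the dimmest members as a group showed no common direction.

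**Figure D2:**
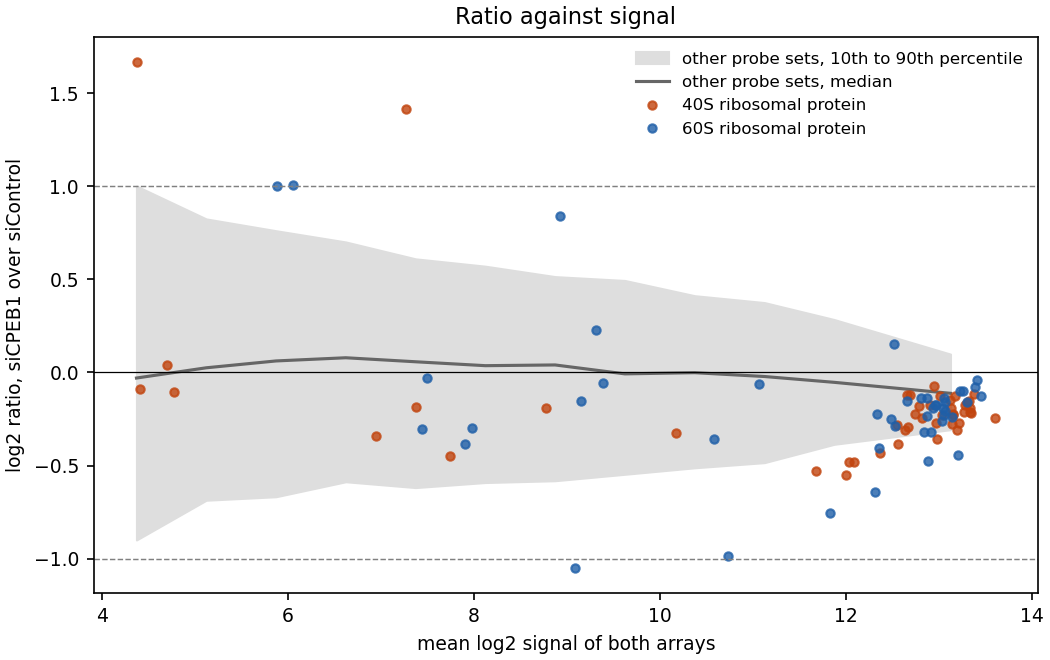
Log2 ratio (siCPEB1/siControl) of the 92 passing member probe sets against the mean log2 signal of both arrays, 40S in orange and 60S in blue. The grey line and band give the median and the 10th to 90th percentile of other probe sets; bright members cluster under the grey line and inside or near the lower part of the band, and the 4 members past 2-fold higher stand at low signals.

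The distance of the bright members from 0 depended on the scaling. With quantile normalization the 66 bright members had a median of −0.02 (37 below 0), against 0.04 for the 336 others. With a loess curve through ratio against signal, the medians were −0.06 (50 below 0) and 0.02. The gap between members and other bright probe sets went from −0.12 to −0.07 and −0.08, and 54 and 57 of the 66 members were still below the median of the others.

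Counted by subunit, the 47 passing 40S probe sets had a median of −0.22 (44 below 0) and the 45 passing 60S probe sets one of −0.19 (40 below 0). With 1 probe set for each gene, by preference 1 not marked by its name as cross-hybridizing (_x_at or _s_at), the 21 genes of the 40S subunit had a median of −0.18 (19 below 0) and the 25 of the 60S subunit one of −0.21 (24 below 0). The order of the subunits thus turned with the way of counting, and with the brightest probe set of each gene the medians were −0.24 and −0.15. Over all 46 genes the median was −0.19 with 43 below 0, beside 0.05 and 46.2% below 0 for 11554 genes. Probe sets marked as cross-hybridizing, which may also bind transcripts of the many ribosomal protein pseudogenes, had a median of −0.21 (41 probe sets), and the other 51 had one of −0.19.

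**Figure D3:**
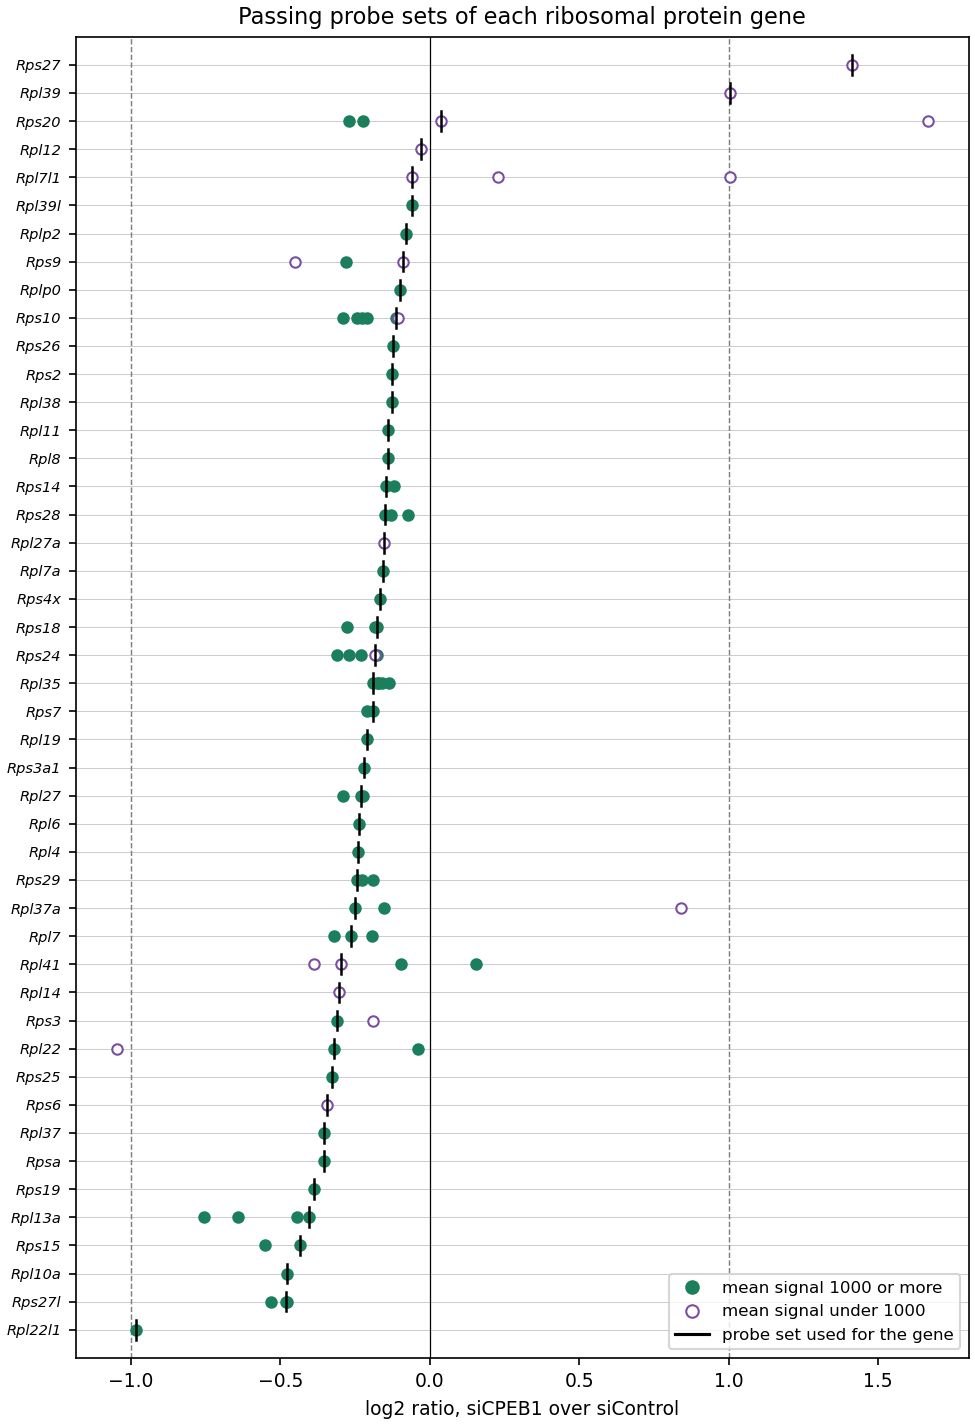
Log2 ratio (siCPEB1/siControl) for each passing probe set of the 46 member genes, ordered by the ratio of the probe set used for the gene (black bar), with filled points for a mean signal of 1000 or more and open points for a lower one. Filled points lie in a narrow strip below 0 apart from Rpl22l1 and Rpl13a on the left and 1 probe set of Rpl41 above 0, and the points beyond the dashed 2-fold lines are open.

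How well the probe sets of 1 gene agreed depended on their brightness. Of 20 member genes with 2 or more passing probe sets, 16 had all of them below 0, none had all above 0, and 4 (Rps20, Rpl7l1, Rpl37a and Rpl41) had both signs. Among members with a mean signal of 1000 or more, probe sets of 1 gene differed with a pooled SD of 0.081 (50 probe sets of 17 genes), against 0.126 for other genes of that brightness. Over all passing member probe sets the pooled SD was 0.323, and the dimmer probe sets of Rps20, Rpl37a, Rpl22 and Rpl7l1 lay farthest from brighter ones.

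Proteins of the 40S head gave 9 measured genes with a median of −0.24, and 8 were below 0. Rps15, which sits near the decoding site, had signals of 6164 and 4561 in siControl and siCPEB1 (log2 ratio −0.43). Its other probe set had 4961 and 3386 (−0.55), so that both were among the lower members. Rps19, needed for maturation of the 18S ribosomal RNA and the gene most often mutated in Diamond-Blackfan anaemia, had 6934 and 5303 (−0.39). The 3 probe sets of Rps29 had log2 ratios of −0.24, −0.19 and −0.23. Rps10, at the mRNA entry, had ratios from −0.29 to −0.11 in 5 bright probe sets and −0.11 in a dim one. Rps28, at the mRNA exit side, had −0.15, −0.13 and −0.07. In these 5 genes every passing probe set was below 0, and none was lower by as much as 2-fold. The probe sets used for Rps10 and Rps28 turned above 0 with quantile normalization (0.052 and 0.034) and with loess (0.050 and 0.011).

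Rps20, another protein of the head, gave the highest ratio among the 92 passing member probe sets, at a very dim one. That probe set had 11.7 in siControl and 37.2 in siCPEB1 (log2 ratio 1.67), and since the first value lies under the array median, it was at least 1.77-fold higher with siControl set at that median. Its 2 bright probe sets pointed the other way, with 9851 and 8434 (−0.22) and 10439 and 8659 (−0.27). The remaining one had 25.8 and 26.5 (0.04) and was the one used for the gene, since the bright ones are marked as cross-hybridizing. The 2 bright and 2 dim probe sets of Rps20 therefore gave no common direction.

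Rps27, a zinc-finger protein of the 40S platform, and its paralogue Rps27l differed most within a pair. Rps27 went from a signal of 95.0 in siControl to 253 in siCPEB1 at its only probe set (log2 ratio 1.41, 2.66-fold higher), the highest ratio of the 46 genes. Rps27l, a paralogue known as a p53 target, was lower at all 3 probe sets. These had 5141 and 3688 (−0.48), 4966 and 3556 (−0.48), and 3939 and 2725 (−0.53) in siControl and siCPEB1. The probe sets of Rps27l were thus even among themselves, while Rps27 rests on 1 probe set of modest signal for an mRNA that is abundant in most cells. Of the other 40S members named, Rps3a1 had 11216 and 9628 (−0.22) and Rps4x, an X-linked member, had 10704 and 9547 (−0.17), which became 0.011 with quantile normalization.

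In the large subunit, the acidic stalk that recruits elongation factors was nearly even between arrays. Rplp0, the base of the stalk, had 10126 in siControl and 9457 in siCPEB1 (log2 ratio −0.10), and Rplp2 had 10995 and 10414 (−0.08). Rplp1 had no probe set of its own. Rpl11, which with Rpl5 and the 5S ribosomal RNA forms the particle that binds MDM2 when assembly is disturbed, had 8958 and 8136 (−0.14), and Rpl5 had none of its own. Rpl12, beside the stalk, had 183 and 180 (−0.03) at a dim probe set. Rpl38, known from mice with skeletal patterning defects, had 11707 and 10721 (−0.13). These 5 genes were lower in siCPEB1 by about as much as the hybridization controls, or by less, and 4 of them turned above 0 with other scalings. Quantile normalization and loess gave log2 ratios of 0.077 and 0.060 for Rplp0, 0.076 and 0.087 for Rplp2, 0.040 and 0.0092 for Rpl11, and 0.048 and 0.042 for Rpl38.

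The lowest 60S genes were Rpl22l1, Rpl10a and Rpl13a. Rpl22l1, the paralogue that can replace Rpl22 in the ribosome, had 2389 in siControl and 1207 in siCPEB1 (log2 ratio −0.98, 1.98-fold lower) at its 1 probe set, just short of 2-fold. Rpl22, an RNA-binding protein of the subunit surface, had 8647 and 6925 (−0.32) and, at its brightest probe set, 10996 and 10702 (−0.04). A dimmer probe set had 782 and 378 (−1.05) and was the only passing member past 2-fold lower. It carries a name that marks cross-hybridization, as does the brightest one, and the 3 ratios span more than 1 log2 unit while all are below 0.

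Rpl10a, of the L1 stalk where spent tRNA leaves, had 8926 and 6415 (−0.48) at its 1 probe set. Rpl13a, known also for repressing translation of inflammatory mRNAs after its release from the ribosome, was lower at all 4 probe sets. The pairs of signals were 6034 and 4559 (−0.40), 11036 and 8112 (−0.44), 6357 and 4079 (−0.64), and 4717 and 2796 (−0.75). By the mean of its probe sets (−0.56), Rpl13a was the lowest gene with more than 1 passing probe set. Rpl35, at the exit of the nascent chain, had 5 bright probe sets between −0.19 and −0.14. Most of these are marked as cross-hybridizing and may bind the same other transcripts, so that they are not independent measurements. A dim probe set of Rpl35 (18.1 in siControl and 13.1 in siCPEB1, −0.47) did not pass the filter.

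The 60S members past 2-fold higher were dim and lay at the threshold itself. Rpl39, a very small protein of the exit tunnel, had 41.8 in siControl and 83.9 in siCPEB1 (2.00-fold higher). Its paralogue Rpl39l, best known from testis and tumour lines, had 2190 and 2100 (−0.06). The signals of Rpl39 and Rpl39l come from 1 probe set each and do not rank the levels of the 2 mRNAs. Rpl7l1, a nucleolar relative of Rpl7, had 47.0 and 94.3 (2.01-fold higher) at 1 probe set, but 684 and 656 (−0.06) and 589 and 690 (0.23) at the brighter ones. Rpl7 itself had −0.26, −0.32 and −0.19 at 3 bright probe sets. Rpl37a also had a split, with −0.25 and −0.15 at bright probe sets and 364 and 651 (0.84) at a dimmer one. This dimmer probe set of Rpl37a is marked as cross-hybridizing and lies well above the array medians. None of the 5 member probe sets past 2-fold had a second probe set of its gene past 2-fold that passed, and Rps27 and Rpl39 have 1 probe set each.

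Members that did not pass the filter were 13 probe sets. For 3 genes no probe set passed: Rpl3l, the muscle paralogue of Rpl3 (10.2 in siControl and 19.3 in siCPEB1), Rps4l, a relative of Rps4x (1.41 and 0.683), and Rps16 (0.350 and 0.390). Rpl3l is little expressed outside muscle. Rps16 belongs to every ribosome, so that a signal near 0 at its only own probe set gives no level of its mRNA.

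Of a list of 10 ribosomal proteins tied to Diamond-Blackfan anaemia, an inherited failure of red cell production, 6 genes were measured. These were Rps7, Rps10, Rps19, Rps24, Rps26 and Rpl11, with a median of −0.16, and all were below 0. Over all 46 member genes, 43 were below 0. The list was not exhaustive, and Rps27 (log2 ratio 1.41), the highest member gene, was not on it. The 4 measured proteins around the peptide exit (Rpl19, Rpl22, Rpl35 and Rpl39) had a median of −0.20, with 3 below 0. Fau, the gene of a ubiquitin-like fusion to the 40S protein eS30, had 6511 and 5283 (−0.30).

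Genes that share a trait with the members were described from lists chosen with earlier results of these data known. Other TOP mRNAs, mostly translation factors, gave 15 measured genes with a median log2 ratio of −0.23, and 13 were below 0. The lowest was Eif4b, which activates the helicase of the cap complex, with 2123 in siControl and 1416 in siCPEB1 (−0.58) and −0.84 and −0.87 at its other probe sets. The highest was Vim, an intermediate filament protein, with 8155 and 9373 (0.20) and 0.05 and 0.16 at the others. None of the 15 was past 2-fold.

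The non-coding hosts of small nucleolar RNAs, whose transcripts also begin with a TOP motif, gave 7 genes with a median of −0.20, and 5 were below 0. Gas5 was the lowest, with 5772 and 4318 (−0.42) and −0.51, −0.23 and −0.40 at its other probe sets. Snhg8 was the highest, with 1197 and 1278 (0.09). The medians of both TOP lists were thus near that of the ribosomal proteins, and in siControl their signals ran from 1972 to 10961 and from 1197 to 5772. Probe sets outside the members had medians of −0.10 at a mean signal of 4000 or more and −0.01 between 1000 and 4000. With quantile normalization both TOP medians were −0.07. The part of the offset of bright probe sets in the TOP medians was not tested.

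**Figure D4:**
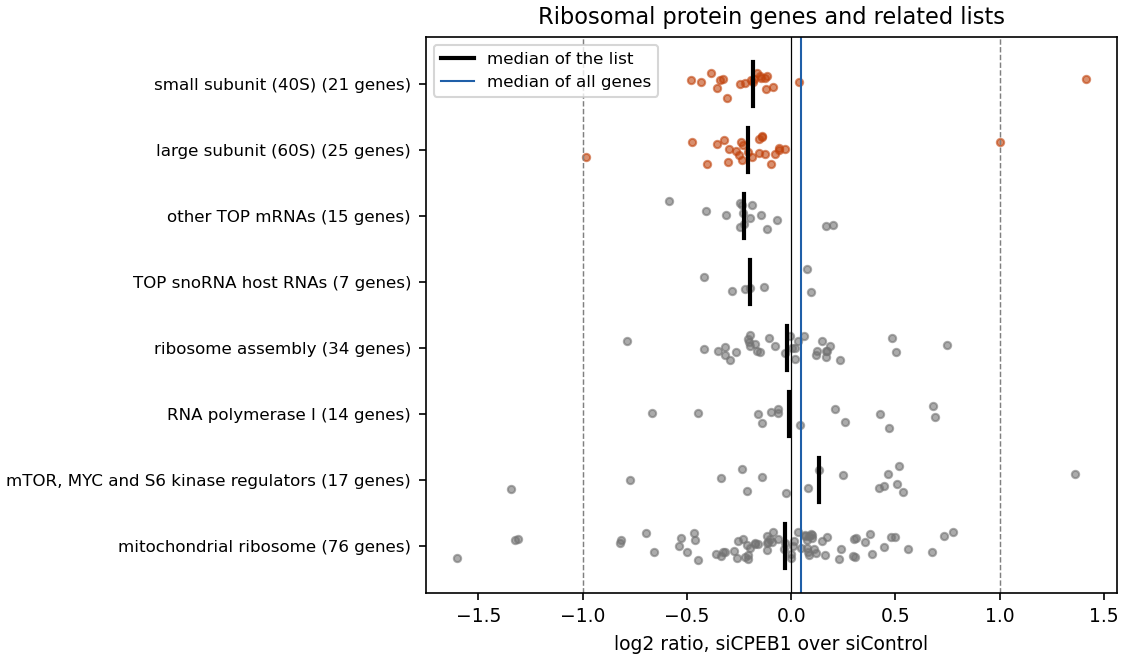
Log2 ratio (siCPEB1/siControl) for each measured gene of the 40S and 60S subunits (orange) and of 6 related lists (grey), with 1 probe set per gene. Black bars mark the median of each list and the blue line that of all 11554 genes; the subunits and both TOP lists have medians from −0.23 to −0.18, and the other lists have medians from −0.03 to 0.13.

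Genes that build ribosomes without being part of them were spread on both sides of 0. Ribosome assembly factors gave 34 genes with a median of −0.02, and 18 were below 0. Nhp2, of the pseudouridylation particles, was the lowest with 2445 and 1417 (−0.79) and −0.51 at its other probe set. Riok2, a kinase of late 40S assembly, was the highest with 275 and 461 (0.75) and 0.36 and 0.60 at the others that passed. RNA polymerase I and its factors gave 14 genes with a median of −0.01, and 7 were below 0. Taf1b was the lowest with 367 and 232 (−0.67). Taf1d was the highest with 370 and 598 (0.69), but its passing probe sets ran from −0.72 to 1.25. In siControl the signals of the assembly genes ran from 238 to 6724, and those of the polymerase I genes from 99.6 to 1220. Probe sets outside the members had medians of 0.04 between 100 and 1000 and −0.01 between 1000 and 4000. The part of signal in the difference between these lists and the TOP lists was not tested.

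Regulators of the mTOR, MYC and S6 kinase pathways, which set the output of TOP mRNAs and ribosome production, gave 17 genes with a median of 0.13. Of these, 1 was more than 2-fold higher and 1 more than 2-fold lower, beside 4.96% and 3.45% of all genes. Mycn, the MYC family member of neuroblastoma, had 296 in siControl and 759 in siCPEB1 (log2 ratio 1.36), with 0.70 and −0.93 at 2 dimmer probe sets. Ddit4, a stress-induced inhibitor of mTOR complex 1, had 2287 and 901 (−1.34, 2.54-fold lower) at its 1 probe set. Larp1, named after its value was seen because it binds TOP mRNAs, had 1264 and 739 (−0.77, 1.71-fold lower). Mtor itself had 323 and 354 (0.13).

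The mitochondrial ribosome, a separate particle whose proteins are encoded by Mrpl and Mrps genes, gave 76 genes with a median of −0.03, and 41 were below 0. Its ratios had an SD of 0.43, against 0.34 over the 46 cytosolic genes, but these sets were not matched for signal. The mitochondrial signals in siControl ran from 58.1 to 2911. Other probe sets had an SD of 0.51 between 100 and 1000, 0.37 between 1000 and 4000, and 0.22 at 4000 or more. Of the 76 mitochondrial genes, 3 were more than 2-fold lower, near the share over all genes (3.45%). The lowest was Mrpl13, with 1841 and 606 (−1.60) and −1.88 and −1.97 at its other passing probe sets. The highest was Mrpl33, with 634 and 1087 (0.78). No cytosolic ribosomal protein probe set with a mean signal of 1000 or more had a ratio as far from 0 as that of Mrpl13.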

How the data were processed

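Total RNA of siControl- and siCPEB1-transfected Neuro2a cells was measured on 1 array each. The submitters' processing notes name MAS5 in Affymetrix Expression Console, with which the authors turned probe brightness into 1 deposited linear intensity for each probe set. MAS5 subtracts background and multiplies each array by a factor, whose target no source used here gives, and the number of arrays limits the precision.

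Ratios of siCPEB1 to siControl were taken on the log2 scale without further scaling. Gene names came from the platform annotation, and 64 AFFX controls were left out. Each gene was given by 1 probe set, the brightest passing one whose name is not _x_at or _s_at, or else the brightest passing one. Called means past 2-fold. Members, gene lists, the filter and the genes to be named (members past 2-fold, the 6 highest, 6 lowest and 6 brightest, stalk, 5S particle and paralogues, and the highest and lowest of each list) were chosen with earlier results of these data known. Alternatives were other scalings, 16 added to both signals, other filters and other choices of probe set. The steps were tested on simulated data. Python 3.11.15, numpy 2.4.6, pandas 2.3.3, statsmodels 0.14.6 and matplotlib 3.10.9 were used.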

Additional observations from a re-analysis of the deposited data

How the results depend on the processing

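Neither condition has a replicate, so that the spread between cultures is unknown and dim probe sets limit every count past 2-fold. No paired analysis was possible because each condition has 1 array. Of the medians and counts compared between settings, 112 stayed within the SD of the hybridization controls (0.075), or within 1.5 times for counts, and 26 moved farther. Those that moved include the medians of the members, both subunits and both TOP lists with quantile normalization and loess. The 4 member probe sets past 2-fold higher became 2 with median scaling, 75th percentile scaling, quantile normalization, loess and the shift of −0.04 that the study's table carries, 1 with 16 added to both signals, and 0 with the 75th percentile required in both arrays. The 1 past 2-fold lower became 2 with median scaling, 75th percentile scaling and that shift, which takes in Rpl22l1 and leaves out Rpl39 and Rpl7l1, 3 without a filter, and 0 without _x_at and _s_at probe sets. Over all probe sets, against 1061 higher and 956 lower, there were 450 and 460 with 16 added, 551 and 596 with the array median required in both arrays, 122 and 208 with the 75th percentile, and 6405 and 5326 without a filter.

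Quantile normalization gave medians of −0.045 for member probe sets, −0.047 for member genes, −0.013 for 40S genes, −0.049 for 60S genes, −0.071 for other TOP mRNAs and −0.072 for the hosts of small nucleolar RNAs. Loess gave −0.073, −0.066, −0.057, −0.082, −0.088 and −0.086 in the same order. Averaging all passing probe sets of a gene, the median was 0.12 for RNA polymerase I and 0.056 for the mTOR, MYC and S6 kinase list. Of 144 values of 36 named genes, 4 moved by more than the pooled SD of probe sets of a gene (0.369). With the mean of all probe sets, passing or not, the log2 ratio was 0.37 for Mycn, 0.39 for Rpl7l1, 0.50 for Rps4x and 0.10 for Taf1d. For Rps4x and Taf1d this mean takes in a probe set that failed the filter. That of Rps4x had 0.928 in siControl and 2.07 in siCPEB1, and by passing probe sets alone Rps4x stayed at −0.17. The sign turned in 15 values of 8 genes, all members with log2 ratios between −0.17 and 0: 7 genes with quantile normalization (Rpl11, Rpl38, Rplp0, Rplp2, Rps10, Rps28 and Rps4x), all of these but Rps4x with loess, and Rps4x and Rpl7l1 with the mean of all probe sets. The cause was not tested.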

Other observations

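Probe sets whose annotation lists several genes, at least 1 of them a ribosomal protein gene, were kept apart from the members. There were 110 of them, 103 passed the filter, and 94 of these were below 0 with a median log2 ratio of −0.26. At a mean signal of 4000 or more, all 76 were below 0 (range −0.62 to −0.03, median −0.26), beside −0.22 for the 66 members of that brightness. None was more than 2-fold higher and 1 was more than 2-fold lower. No gene can be named from these probe sets, and 31 of the 80 ribosomal protein genes in the annotation are measured through them alone.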
